A study of Mus musculus with 6 samples.

Results

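Rasd2, Dhdh, Odf3l2 and 1700001O22Rik are 4 of the 41709 genes for which expression was measured in mouse tibialis anterior (TA) muscle. They were chosen by symbol because their measured values were higher in the muscles that received the P27A variant of Lrpprc, so the difference between the groups is described for them and not tested. RNA-seq was done on 6 TA muscles of male C57BL/6J mice, 3 electroporated with a plasmid for wild-type Lrpprc (LrpprcWT) and 3 with a plasmid for LrpprcP27A, in which a proline that can be hydroxylated is replaced by alanine. Lrpprc is an RNA-binding protein best known for keeping mitochondrial mRNAs stable. Both plasmids encode mouse Lrpprc with a Flag tag under the CMV promoter of the pCMV6 vector, the muscles are described as contralateral muscles of the same mice, and tissue was taken 14 days after electroporation. Every muscle kept its own Lrpprc gene, both groups received a plasmid, and no muscle without an Lrpprc plasmid was among the 6, so the comparison is of one variant with the other. The study electroporated young mice and, in experiments it describes after the RNA-seq, old mice. The age of the mice used for RNA-seq is not stated outright in the sources used here. Expression was given as TPM, a gene's share of all transcripts in a library after correction for transcript length, scaled to a total of 1000000.

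Rasd2, also called Rhes, is a small GTPase of the Ras family that is best known from the striatum of the brain. There it responds to thyroid hormone, restrains signalling through G proteins, binds mTOR and promotes the attachment of SUMO, a small protein tag, to targets such as huntingtin. Dhdh is dihydrodiol dehydrogenase, an NADP-dependent enzyme that oxidises dihydrodiols formed from aromatic hydrocarbons and also acts on sugars such as xylose. Odf3l2, now named Cimap1d, is a relative of Odf3, a protein of the outer dense fibres that surround the axoneme of the sperm tail. 1700001O22Rik carries the name of a cDNA clone from the RIKEN collection, and no function is given for it here.

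The 4 genes lie on different chromosomes of GRCm39 in the GENCODE annotation and are all protein-coding. Rasd2 spans 75940572 to 75950874 on chromosome 8, on the plus strand, with 3 exons in its canonical transcript. Dhdh spans 45120411 to 45138247 on chromosome 7, on the minus strand, with 7 exons. Odf3l2 spans 79475343 to 79481880 on chromosome 10, on the minus strand, with 4 exons. 1700001O22Rik spans 30684781 to 30693673 on chromosome 2, on the minus strand, with 7 exons and 26 annotated transcripts, the highest number of the 4 genes.

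Promoter sequences were matched by symbol in RefSeq for 2 of the 4 genes, Rasd2 and 1700001O22Rik, in the build GRCm38.p6. They are shown because these genes were high in the same libraries, and each is the 250 bases before an annotated start site, read 5′ to 3′ on the gene's strand. Capitals mark matches, on either strand, to 8 motifs that were searched: TATAAA as the TATA box, the CCAAT box, GGGCGG as the GC box, CANNTG as the E-box, AGGTCA as a half-site of nuclear receptors, AGAACA as a half-site of the glucocorticoid receptor, GCGTG as the core of the xenobiotic response element and TGACG as a half-site of the cAMP response element. The promoter of Rasd2 lies at chr8:75213694-75213943 on the plus strand, and the table holds a pair of entries for 1700001O22Rik, at chr2:30803665-30803914 and chr2:30801738-30801987 on the minus strand.
Rasd2: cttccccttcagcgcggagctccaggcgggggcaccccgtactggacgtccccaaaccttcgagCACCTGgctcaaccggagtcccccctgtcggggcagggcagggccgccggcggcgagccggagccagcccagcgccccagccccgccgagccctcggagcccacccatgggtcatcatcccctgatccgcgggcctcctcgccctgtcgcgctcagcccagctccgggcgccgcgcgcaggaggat
1700001O22Rik, entry 1: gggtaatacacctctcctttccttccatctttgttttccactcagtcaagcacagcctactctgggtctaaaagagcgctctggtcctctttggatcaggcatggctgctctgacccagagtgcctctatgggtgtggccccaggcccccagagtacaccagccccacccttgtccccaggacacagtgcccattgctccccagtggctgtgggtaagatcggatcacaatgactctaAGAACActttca
1700001O22Rik, entry 2: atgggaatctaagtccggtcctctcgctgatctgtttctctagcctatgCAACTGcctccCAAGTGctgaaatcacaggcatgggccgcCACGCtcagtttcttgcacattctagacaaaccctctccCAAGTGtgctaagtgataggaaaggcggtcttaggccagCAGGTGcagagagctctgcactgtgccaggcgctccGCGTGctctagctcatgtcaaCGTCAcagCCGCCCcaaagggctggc
The Rasd2 promoter was rich in G and C, with a GC content of 75.2% and 27 CpG dinucleotides, and 96.1% of the 32851 promoters in the table had a lower GC content. It held 1 motif match, an E-box whose first base lies 186 bases before the start. Entry 1 of 1700001O22Rik had a GC content of 54.8% and 2 CpG, close to the median of 52.4% and below the median of 6 CpG over all promoters, and it held AGAACA 12 bases before the start. Entry 2 had a GC content of 56.4% and 10 CpG, and held 4 E-boxes, a GC box, 2 copies of GCGTG and 1 of TGACG. The E-box, the only motif found in both genes, occurs in 66.2% of all promoters of this length. AGAACA occurs in 16.1% of them, the GC box in 32.7%, GCGTG in 28.2% and TGACG in 17.8%. The TATA box, the CCAAT box and the nuclear receptor half-site, found in 12.4%, 33.8% and 14% of all promoters, had no match in these windows. A match is a run of letters and not a measured binding site.

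Among the 6 libraries, between 18603 and 19053 genes were above 0 with LrpprcWT and between 17774 and 18197 with LrpprcP27A. TPM sums to the same total in every library and keeps no depth, so the number of reads behind each value is unknown. All 10 skeletal muscle markers were present, and their summed level was 129382 to 144844 TPM with LrpprcWT and 119290 to 133968 TPM with LrpprcP27A. Transcripts of the mitochondrial genome took 36% to 45.2% of TPM with LrpprcWT and 44.2% to 46.1% with LrpprcP27A. The LrpprcWT library of replicate 2 stood apart from the other LrpprcWT libraries. On the first principal component, which held 78.1% of the variance, it scored -0.80, while the other LrpprcWT libraries scored -42.4 and -41.6 and the LrpprcP27A libraries 18 to 38.9. Lrpprc itself measured 35.1, 37.0 and 75.2 TPM with LrpprcWT and 26.9, 29.7 and 26 TPM with LrpprcP27A. These values sum the muscle's own gene and the plasmid, which TPM per gene does not separate. The log2 fold change of Lrpprc was -0.72 (limma adjusted p = 0.0652, and 0.00243 with the replicate number as a block). It was -0.36 with median-of-ratios scaling (limma adjusted p = 0.331, and 0.245 with the block). It was -0.38 without the LrpprcWT library of replicate 3 (limma adjusted p = 0.113) and -0.88 without that of replicate 2 (limma adjusted p = 0.0353).

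Rasd2, the Ras-family GTPase, measured 1.48, 4.04 and 1.17 TPM in the LrpprcWT libraries of replicates 1 to 3, and 8.72, 11.6 and 13.9 TPM in the LrpprcP27A libraries. The groups did not overlap, and the lowest LrpprcP27A library was 2.16 times the highest LrpprcWT library, the one of replicate 2. The mean was 2.23 ± 1.58 TPM (SD, n = 3) with LrpprcWT and 11.4 ± 2.61 TPM (SD, n = 3) with LrpprcP27A, a ratio of 5.11. On the log2(TPM + 1) scale, which understates the change of low genes, the log2 fold change was 2.02 ± 0.31 (SE), and 2.40 without the LrpprcWT library of replicate 2.

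Dhdh, the dihydrodiol dehydrogenase, measured 8.06, 7.97 and 6.22 TPM with LrpprcWT and 10.5, 11.2 and 11.8 TPM with LrpprcP27A. Its groups did not overlap either, but they lay closer together, with the lowest LrpprcP27A library at 1.30 times the highest LrpprcWT library. The means were 7.42 ± 1.04 TPM (SD, n = 3) and 11.2 ± 0.694 TPM (SD, n = 3), a ratio of 1.51, and the log2 fold change was 0.54 ± 0.14 (SE). Without the LrpprcWT library of replicate 2 it was 0.59. Dhdh was not a gene of low level in this muscle. The median tested gene had a mean of 8.31 TPM with LrpprcWT and 6.06 TPM with LrpprcP27A, close to Dhdh in the first group and below it in the second.

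Odf3l2, the relative of a sperm tail protein, measured 0.230, 0.517 and 1.18 TPM with LrpprcWT and 2.05, 4.90 and 11.5 TPM with LrpprcP27A. The groups did not overlap, but the libraries spread widely within each of them, and replicate 3 was the highest in both. The mean was 0.642 ± 0.488 TPM (SD, n = 3) with LrpprcWT and 6.13 ± 4.82 TPM (SD, n = 3) with LrpprcP27A, a ratio of 9.55. The log2 fold change was 1.93 ± 0.45 (SE), the widest error among the 4 genes. It was 1.41 without the LrpprcP27A library of replicate 3 and 1.89 without the LrpprcWT library of replicate 2.

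1700001O22Rik measured 0.165, 0.712 and 0.215 TPM with LrpprcWT and 1.73, 5.28 and 6.86 TPM with LrpprcP27A. It had the lowest mean of the 4 genes in both groups, and every LrpprcP27A library lay at 2.43 times the highest LrpprcWT library or above. The means were 0.364 ± 0.302 TPM (SD, n = 3) and 4.62 ± 2.63 TPM (SD, n = 3), a ratio of 12.7, and the log2 fold change was 1.93 ± 0.36 (SE). Without the LrpprcWT library of replicate 2 it was 2.11. In bulk muscle a change in the number of cells that hold a transcript and a change in the amount per cell cannot be told apart.

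**Figure D1:**
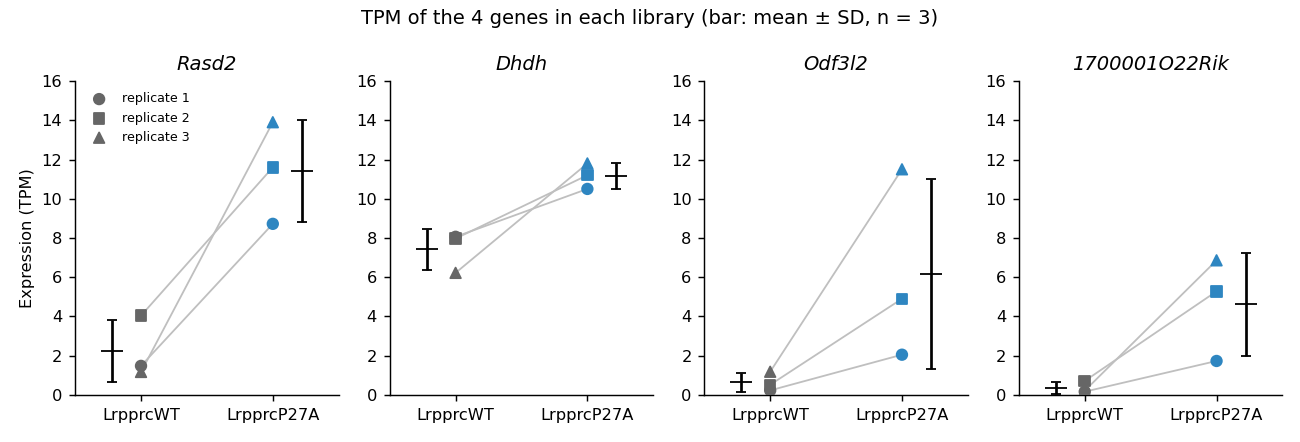
Expression in TPM (vertical axis) of Rasd2, Dhdh, Odf3l2 and 1700001O22Rik in each library, grey with LrpprcWT and blue with LrpprcP27A, with lines joining libraries of the same replicate number and bars for the mean ± SD (n = 3). All lines rise, Dhdh starts from 6.22 to 8.06 TPM, and Odf3l2 spreads from 2.05 to 11.5 TPM with LrpprcP27A.

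In 4 of the 4 genes every LrpprcP27A library was above every LrpprcWT library. Across all 11611 tested genes, those with a mean of at least 1 TPM over the 6 libraries, this held for 407 (3.51%), and the members were chosen on this contrast, so nothing is read from their count. Odf3l2 and 1700001O22Rik had means below 1 TPM with LrpprcWT and reached the tested genes only through their values with LrpprcP27A. Ordered by log2 fold change from the highest, Rasd2, 1700001O22Rik and Odf3l2 were the 2nd, 3rd and 4th of the 11611 genes, and Dhdh was the 150th. The pseudocount sets the size of the change of the low genes, and with 0.1 in place of 1 the log2 fold change was 2.48 for Rasd2, 2.97 for Odf3l2 and 3.33 for 1700001O22Rik, against 0.59 for Dhdh.

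**Figure D2:**
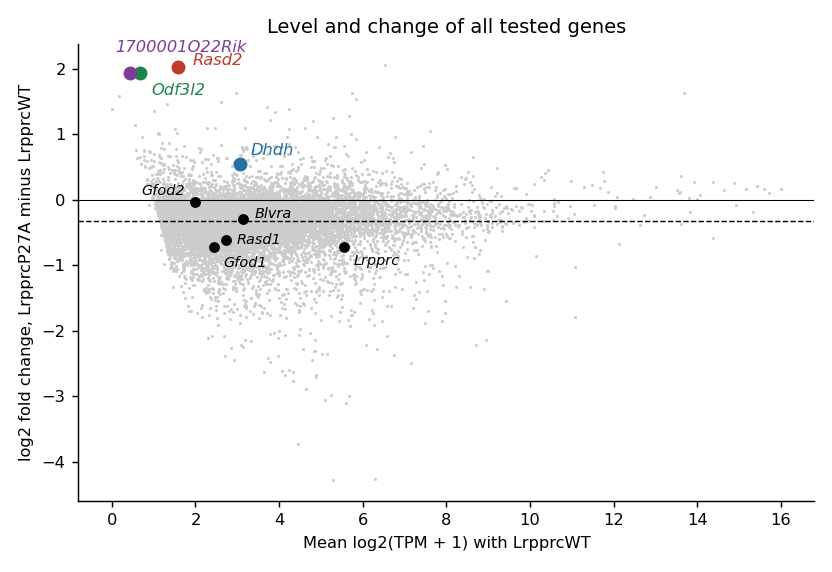
Log2 fold change of LrpprcP27A against LrpprcWT (vertical axis) by mean log2(TPM + 1) with LrpprcWT (horizontal axis) for the 11611 tested genes (grey), with the 4 genes in colour and their tested relatives and Lrpprc in black. The dashed line is the median of all tested genes (-0.32), and 3 of the 4 genes sit at the upper left, at low level and log2 fold changes of 1.93 to 2.02, while Dhdh sits at 0.54.

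The distance from the other genes depends on the scale, because most genes were lower with LrpprcP27A. The median log2 fold change of all tested genes was -0.32 on the deposited scale, and -0.0047 with median-of-ratios scaling, which sets the typical gene of each library to the same level. With that scaling the log2 fold changes were 2.29 for Rasd2, 0.87 for Dhdh, 2.15 for Odf3l2 and 2.11 for 1700001O22Rik. The share of tested genes above 0 was 12% on the deposited scale and 49.2% with median-of-ratios scaling.

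The order of the 4 genes differed between the groups. Dhdh was the highest in all 3 LrpprcWT libraries and in the LrpprcP27A library of replicate 1, and Rasd2 was the highest in the LrpprcP27A libraries of replicates 2 and 3. With LrpprcWT, the libraries of Dhdh lay above those of the other genes, whereas Rasd2 and Odf3l2, and Odf3l2 and 1700001O22Rik, overlapped. With LrpprcP27A, Rasd2, Dhdh and Odf3l2 all overlapped one another, as did Odf3l2 and 1700001O22Rik. The highest of the 4 genes was 49.0, 15.4 and 28.9 times the lowest in the LrpprcWT libraries, and 6.05, 2.36 and 2.03 times the lowest in the LrpprcP27A libraries. The 4 genes together made up 9.94, 13.2 and 8.78 TPM with LrpprcWT and 23.0, 33.0 and 44.1 TPM with LrpprcP27A.

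By rank among all genes above 0 in a library, Rasd2 stood at the 40.2, 59.2 and 37.4 percentile with LrpprcWT and at 74.0, 79.0 and 81.0 with LrpprcP27A. Dhdh stood at 67.4, 71.7 and 62.5 and then at 77.2, 78.6 and 78.3. Of the 4 genes Dhdh moved least in rank. Odf3l2 stood at 21.7, 31.2 and 37.6 with LrpprcWT and at 48.6, 64.5 and 77.9 with LrpprcP27A. 1700001O22Rik stood at 18.6, 34.4 and 20.9 and then at 46.2, 65.8 and 69.3.

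Libraries with the same replicate number are taken here as a pair of muscles of the same mouse, which the sources do not state outright. In each of the 3 pairs all 4 genes were higher with LrpprcP27A, as must be so for groups that do not overlap. The ratios within pairs 1 to 3 were 5.89, 2.86 and 11.9 for Rasd2 and 1.30, 1.41 and 1.91 for Dhdh. For Odf3l2 they were 8.93, 9.49 and 9.70, nearly the same in every pair although its level differed several-fold between the pairs. For 1700001O22Rik they were 10.5, 7.43 and 31.9. Pair 3 had the largest ratio for each of the 4 genes, and how many of all tested genes shared this was not counted. When the replicate number was fitted as a block, limma's SE of the log2 fold change was 0.18 for Odf3l2 in place of 0.45. It was 0.20 for 1700001O22Rik in place of 0.36, 0.19 for Rasd2 in place of 0.31 and 0.14 for Dhdh with or without the block. These SE are moderated, with each gene's variance drawn towards that of all genes, so they do not give the spread of the 3 pairs alone. The log2 differences within pairs 1 to 3 were 1.97, 1.32 and 2.78 for Rasd2 and 0.34, 0.45 and 0.83 for Dhdh. They were 1.31, 1.96 and 2.51 for Odf3l2 and 1.23, 1.88 and 2.69 for 1700001O22Rik.

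Among the LrpprcP27A libraries, replicate 1 was the lowest and replicate 3 the highest for each of the 4 genes. Among the LrpprcWT libraries there was no such shared order. Replicate 2 was the highest for Rasd2 and 1700001O22Rik, replicate 1 for Dhdh and replicate 3 for Odf3l2. How many of all tested genes had the order seen with LrpprcP27A was not counted, so it is not read as a trait of these 4 genes. Scn4a had it too, at 130, 140 and 145 TPM with LrpprcP27A, whereas Nos1 did not, at 46.5, 38.8 and 40.1 TPM. The coefficient of variation was highest for 1700001O22Rik with LrpprcWT (83.1%) and for Odf3l2 with LrpprcP27A (78.6%), and lowest for Dhdh, with 14.1% and 6.21%. Over the 6 libraries the log2 values of the 4 genes correlated pairwise by 0.78 to 0.95, which includes the group difference they were chosen on. For the deviations from the group means Pearson's r ran from 0.04 for Dhdh and Odf3l2 to 0.80 for Odf3l2 and 1700001O22Rik. These rest on n = 6 libraries that share the same TPM total. With the group means taken out, fewer than 6 deviations are free to vary.

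The closest relative of Rasd2, Rasd1 (Dexras1, a Ras-family GTPase induced by glucocorticoids), measured 3.70, 5.66 and 8.23 TPM with LrpprcWT and 4.86, 3.29 and 2.21 TPM with LrpprcP27A. The groups overlapped, with a log2 fold change of -0.61 (limma adjusted p = 0.119, and 0.0257 with the replicate number as a block). It was -0.31 with the block and median-of-ratios scaling (limma adjusted p = 0.498), -0.37 without the LrpprcWT library of replicate 3 and -0.40 without the LrpprcP27A library of replicate 3. Blvra, the biliverdin reductase that shares the fold of Dhdh, measured 7.59, 7.14 and 8.97 TPM and then 5.66, 6.75 and 6.22 TPM, with a log2 fold change of -0.30 (limma adjusted p = 0.119). The LrpprcP27A libraries were all below the LrpprcWT libraries for Blvra, a difference that did not pass the test, except without the LrpprcWT library of replicate 2 (log2 fold change -0.36, limma adjusted p = 0.0360). Such a separation was common. At an unadjusted Kruskal-Wallis p under 0.05, which 3 against 3 reaches only without overlap, 5530 of 11611 tested genes were lower. Gfod1 and Gfod2, which have an oxidoreductase domain of the same fold, had log2 fold changes of -0.72 (limma adjusted p = 0.0766, and 0.000837 with the replicate number as a block) and -0.04 (limma adjusted p = 0.835). Gfod1 was at -1.02 without the LrpprcWT library of replicate 2 (limma adjusted p = 0.00791). The relatives of Odf3l2 were at or near the bottom of the scale in this muscle. Odf3 was listed at 0 in all 6 libraries, Odf3b ranged from 0.153 to 0.353 TPM and Odf3l1 from 0.0781 to 0.418 TPM, and none of them reached the level for testing.

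Lists of genes around the known roles of the 4 genes were counted in the same limma fit, with the members left out. Of all 11611 tested genes, 156 (1.34%) were called higher and 2705 (23.3%) lower with LrpprcP27A at an adjusted p under 0.05. With the replicate number as a block, 312 (2.69%) were called higher and 5619 (48.4%) lower. At an unadjusted p under 0.05 limma had 301 (2.59%) higher and 5134 (44.2%) lower, the background for the unadjusted counts of the lists. Under the 3 other scalings, named in the order median of ratios, a rescaling to the nuclear protein-coding total, and quantiles, 609, 222 and 493 genes were called higher and 700, 634 and 518 lower. The lists together held 159 tested genes, of which 6 (3.77%) were called higher, 28 (17.6%) lower and 125 were not called. With the block these were 9 higher and 68 lower, and under the 3 other scalings 13, 7 and 11 higher and 7, 7 and 4 lower. The counts rest on single libraries. Without the LrpprcWT library of replicate 1 they were 1 higher and 2 lower, without that of replicate 2 they were 11 and 80, and without that of replicate 3 they were 0 and 0, with 8 and 36 at an unadjusted p under 0.05. Without the LrpprcP27A library of replicate 2 they were 2 and 4, and without that of replicate 3 they were 1 and 3, whereas without that of replicate 1 they were 4 and 20. Over all tested genes, the counts without a library ranged from 3 higher and 15 lower, without the LrpprcWT library of replicate 3, to 304 and 6913, without that of replicate 2. They were 26 and 291 without the LrpprcWT library of replicate 1, 147 and 1688, 34 and 504, and 28 and 440 without the LrpprcP27A libraries of replicates 1, 2 and 3.

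Of the Ras-like GTPases, the family of Rasd2, 22 were tested, of which none was called higher and 8 were called lower (36.4%), with a median log2 fold change of -0.46 beside -0.32 for all tested genes. The median was below 0 under the 3 other scalings too, at -0.156 with median-of-ratios scaling, but only 2, 2 and 1 genes were then called lower, and 1 was called higher with median-of-ratios scaling. With the block 15 were called lower (68.2%), and at an unadjusted p under 0.05 limma had 0 higher and 13 lower (59.1%). Rras, a GTPase that acts in cell adhesion, measured 53.7, 34.2 and 51.3 TPM with LrpprcWT and fell to 26.2, 19.3 and 23.1 TPM with LrpprcP27A (log2 fold change -0.97, limma adjusted p = 0.0173). Rap1b, which acts in integrin signalling, fell by 0.85 on the log2 scale (limma adjusted p = 0.0365, and 0.102 with median-of-ratios scaling). Under 3 other scalings of the libraries the call was kept for Rras in each and for Rap1b in none.

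The SUMO pathway, to which Rasd2 is linked as a factor that promotes conjugation, had 25 tested genes. None was called higher and 3 were called lower (12%), and the median was -0.33, and 0.0212 with quantile normalization. With the block 14 were called lower (56.0%), and under the 3 other scalings 1, 1 and 0. The share called lower was thus below that of all tested genes without the block and above it with the block. At an unadjusted p under 0.05 limma had 0 of them higher and 14 lower (56.0%).

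Of 19 tested genes whose products act with Rasd2 in other tissues, such as mTOR complexes and G proteins, 1 was called higher and 5 lower, with a median of -0.30, which became 0.0053 by median-of-ratios scaling and 0.0900 by quantile normalization. With the block 9 were called lower, and under the 3 other scalings 0, 1 and 0. The gene called higher was Nos1, the neuronal nitric oxide synthase that skeletal muscle also makes. It measured 26.4, 26.4 and 29.2 TPM with LrpprcWT and rose to 46.5, 38.8 and 40.1 TPM with LrpprcP27A (log2 fold change 0.59, limma adjusted p = 0.0181), and the call was kept under the 3 other scalings. The G protein subunits Gnai2 and Gnb1 fell by 0.81 and 0.76 on the log2 scale (limma adjusted p = 0.0265 and 0.0350), and neither call was kept under the other scalings.

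Rasd2 is known as a thyroid hormone target in brain, and of 18 tested genes of thyroid hormone transport, activation, reception and response, 3 were called higher and 3 lower (16.7% each), with a median of -0.11, and of 0.0716 to 0.225 under the 3 other scalings. The list moved in both directions, with 5 higher and 5 lower with the block, and 5, 4 and 4 higher and 3, 2 and 2 lower under those scalings. Me1, the malic enzyme that supplies NADPH, measured 46.3, 75.1 and 50.2 TPM with LrpprcWT and rose to 84.0, 120 and 123 TPM with LrpprcP27A (log2 fold change 0.93, limma adjusted p = 0.0240). Gpd2, the mitochondrial glycerol-3-phosphate dehydrogenase, rose by 0.38 on the log2 scale (limma adjusted p = 0.0363). Thrsp, a regulator of lipid synthesis, measured 26.7, 28.3 and 36.4 TPM and fell to 11.4, 14.5 and 14 TPM (log2 fold change -1.13, limma adjusted p = 0.0111). The calls of these 3 genes were kept under the 3 other scalings.

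Around Dhdh, 18 relatives of its fold and carbonyl reductases were tested, of which 1 was called higher and 3 lower, with a median of -0.21, which became 0.152 by median-of-ratios scaling and 0.111 by quantile normalization. With the block 2 were called higher and 5 lower, and under each of the 3 other scalings 1 higher and 1 lower. Cbr2, a carbonyl reductase best known from lung, measured 15.3, 18.3 and 19.2 TPM with LrpprcWT and rose to 20, 35.3 and 34.9 TPM with LrpprcP27A (log2 fold change 0.70, limma adjusted p = 0.0454). Akr1b8, an aldo-keto reductase, went the other way, from 9.37, 5.0 and 11.4 TPM to 2.08, 2.14 and 1.73 TPM (log2 fold change -1.62, limma adjusted p = 0.0125). Cbr3 fell by 0.64 on the log2 scale (limma adjusted p = 0.0381). The calls of Cbr2 and Akr1b8 were kept under the 3 other scalings and that of Cbr3 under none.

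Of 30 tested genes of xenobiotic metabolism, in which Dhdh takes part, 1 was called higher and 2 lower (6.67%), with a median of -0.08, and of 0.0569 to 0.274 under the 3 other scalings. With those scalings 4, 1 and 3 were called higher and 0 lower, and with the block 1 higher and 8 lower. Nqo1, a quinone reductase and a target of the transcription factors Nrf2 and Ahr, measured 7.97, 8.97 and 8.40 TPM with LrpprcWT and rose to 14.9, 14.2 and 16.3 TPM with LrpprcP27A (log2 fold change 0.77, limma adjusted p = 0.0126), a call kept under the 3 other scalings. Nqo2, its paralogue, and Tpmt, a thiopurine methyltransferase, fell by 0.66 and 0.49 on the log2 scale (limma adjusted p = 0.0270 and 0.0456), and both calls were lost under the 3 other scalings.

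The genes of the sperm tail and of motile cilia were mostly below the level for testing. Of 29 outer dense fibre and sperm tail genes in the table, 8 were listed at 0 in all libraries and 6 were tested, of which none was called in either direction, with a median of -0.22, and above 0 with median-of-ratios scaling (0.0017) and quantile normalization (0.153). Of 26 genes of motile cilia, 5 were tested and none was called, with a median of -0.39, and of 0.014 with quantile normalization. At an unadjusted p under 0.05 limma had 2 genes lower and 0 higher in each of these lists, beside 44.2% lower among all tested genes. With quantile normalization 1 sperm tail gene was called higher. With the replicate number as a block, limma called 2 of the 6 and 3 of the 5 lower. Of 495 other genes with RIKEN clone names like that of 1700001O22Rik, 340 were listed at 0 in all libraries and 16 were tested. None of these was called higher and 4 were called lower (25%), with a median of -0.25, and of 0.136 with quantile normalization. Under the 3 other scalings 0 were called lower and 1, 0 and 1 higher, and with the block 7 were called lower. At an unadjusted p under 0.05 limma had 0 of them higher and 7 lower (43.8%), close to the share of all tested genes. 1700016C15Rik and 1700123O20Rik fell by 0.76 and 0.69 on the log2 scale (limma adjusted p = 0.0402 and 0.0345), and both calls were lost under the 3 other scalings.

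**Figure D3:**
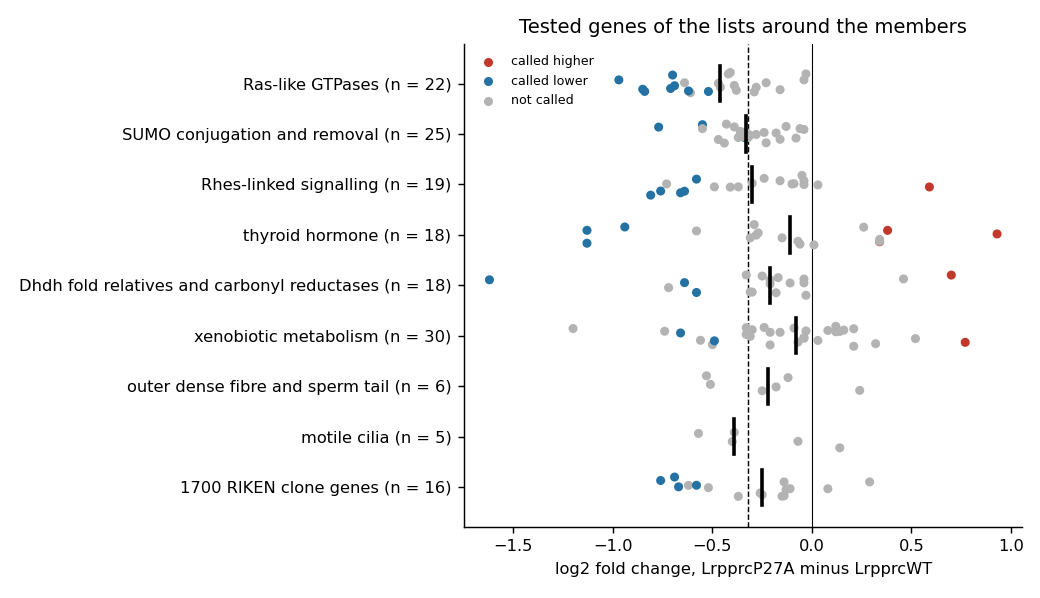
Log2 fold change of LrpprcP27A against LrpprcWT (horizontal axis) of the tested genes of 9 lists, with red for genes called higher, blue for genes called lower and grey for genes not called at a limma adjusted p under 0.05. Short bars mark each list's median and the dashed line the median of all tested genes (-0.32), and red points stand at Nos1, in thyroid hormone genes and at Cbr2 and Nqo1.

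The neighbours of the 4 genes on the chromosome were read to see whether nearby transcripts moved in the same direction. Beside Rasd2, the genes Gm45903, 3901 bp away, Gm45899 and Gm38270 were listed at 0 in all libraries, and Iqcm was at most 0.117 TPM. Dhdh was chosen as higher with LrpprcP27A, and only 12% of tested genes had a log2 fold change above 0. A difference in direction between Dhdh and its expressed neighbours is therefore not read as a result. Bax, an inducer of apoptosis 4085 bp away, measured 16.3, 10.9 and 20.4 TPM with LrpprcWT and fell to 9.49, 8.83 and 9.0 TPM with LrpprcP27A (log2 fold change -0.70, limma adjusted p = 0.0401). Nucb1, a calcium-binding Golgi protein 1634 bp away on the other side, fell by 0.58 on the log2 scale (limma adjusted p = 0.0445), and Ppp1r15a, a stress-induced phosphatase subunit 34092 bp away, fell by 0.56 (limma adjusted p = 0.0283). All 3 calls were lost under the 3 other scalings, in which all 3 genes kept a negative log2 fold change. With median-of-ratios scaling Bax, Nucb1 and Ppp1r15a were at -0.35, -0.23 and -0.20. Of all tested genes, 23.3% were called lower on the deposited scale. Dhdh overlaps Gm45808 on the same strand and Tulp2 on the opposite strand. Gm45808 was at most 0.193 TPM and Tulp2 at most 0.0173 TPM.

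Next to Odf3l2, Shc2, an adaptor protein gene 1573 bp away, measured 1.92, 1.22 and 1.78 TPM with LrpprcWT and 0.981, 1.56 and 1.90 TPM with LrpprcP27A (log2 fold change -0.10, limma adjusted p = 0.673). Tpgs1, a tubulin polyglutamylase subunit 23322 bp away, had a log2 fold change of -0.35 (limma adjusted p = 0.0963, and 0.0385 with the replicate number as a block), and of 0.01 with the block and median-of-ratios scaling. Without the LrpprcWT library of replicate 2 it was -0.47 (limma adjusted p = 0.0165). C2cd4c, 25315 bp away and too low to be tested, measured 0.0509, 0.0294 and 0.0162 TPM with LrpprcWT and 0.0520, 0.0906 and 0.166 TPM with LrpprcP27A. Its highest LrpprcWT and lowest LrpprcP27A libraries were nearly equal, and the reads behind values this low are unknown, so no direction is read from them. Madcam1 was at most 0.0380 TPM, and Gm47163, which overlaps Odf3l2 by 12 bp on the opposite strand, ranged from 0.149 to 0.448 TPM. Near 1700001O22Rik, 4930527E20Rik starts 16 bp away on the opposite strand and was listed at 0 in all libraries. Ntmt1, an N-terminal methyltransferase 4007 bp away, measured 6.89, 5.30 and 8.01 TPM with LrpprcWT and 5.18, 4.96 and 5.69 TPM with LrpprcP27A (log2 fold change -0.29, limma adjusted p = 0.179). Mir3089 was listed at 0 and Gm14488 was at most 0.0898 TPM. Gm75587 overlaps 1700001O22Rik by 1266 bp on the opposite strand and was not analysed here. The library kit does not mark strand, so reads in an overlap cannot be assigned to one gene by strand.

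The tested protein-coding genes whose log2 values followed each member most closely over the 6 libraries were found by Pearson's r. The measure includes the difference between the groups, and with n = 6 it only describes these libraries. It takes no account of the size of a change. For Rasd2 they were Tex2 (r = 0.9972), Ccdc85c (r = 0.9951) and Wnk2 (r = 0.9880). Ccdc85c measured 10.6, 18.4 and 10.8 TPM with LrpprcWT and 28.6, 31.4 and 33.3 TPM with LrpprcP27A, with the LrpprcWT library of replicate 2 the highest of its group as in Rasd2. For Dhdh they were Scn4a (r = 0.9985), Zswim9 (r = 0.9964) and Atmin (r = 0.9959). Zswim9 was not called, at a log2 fold change of 0.24 (limma adjusted p = 0.169, and 0.0419 with median-of-ratios scaling). Scn4a, the voltage-gated sodium channel of skeletal muscle, measured 110, 109 and 91.4 TPM with LrpprcWT and 130, 140 and 145 TPM with LrpprcP27A.

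For Odf3l2 the closest genes were Zfand3 (r = 0.9972), Gpt2 (r = 0.9896) and Agpat1 (r = 0.9882). Zfand3 and Agpat1 were not called, at log2 fold changes of 0.21 and 0.17 beside 1.93 for Odf3l2. Their limma adjusted p was 0.155 and 0.229, and 0.0360 and 0.0411 with median-of-ratios scaling. Gpt2, a mitochondrial alanine aminotransferase, measured 42.2, 49.7 and 55.7 TPM with LrpprcWT and 56.7, 80.6 and 104 TPM with LrpprcP27A, with replicate 3 the highest in both groups as in Odf3l2. For 1700001O22Rik they were Nek9 (r = 0.9977), Tfcp2l1 (r = 0.9943) and Ppm1a (r = 0.9919). Ppm1a was not called, at a log2 fold change of 0.26 (limma adjusted p = 0.101, and 0.0336 with median-of-ratios scaling). Nek9, a kinase of the NIMA family, measured 57.9, 65.2 and 60.0 TPM with LrpprcWT and 73.3, 97.0 and 106 TPM with LrpprcP27A. The genes most like Odf3l2 and 1700001O22Rik were expressed well above them, apart from Tfcp2l1 at 1.29 to 2.77 TPM.

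Genes that crossed 1 TPM were counted on the deposited scale only, on which 12% of tested genes had a log2 fold change above 0. Of 8909 genes that were above 0 in some library and under 1 TPM in every LrpprcWT library, 13 were at 1 TPM or above in every LrpprcP27A library. 1700001O22Rik, which was chosen on this contrast, was among the 13. Odf3l2 was just outside, at 1.18 TPM in the LrpprcWT library of replicate 3. In the opposite direction, 254 of 9933 genes under 1 TPM in every LrpprcP27A library were at 1 TPM or above in every LrpprcWT library. The crossings were not counted under other scalings, so the difference between the directions is not read as a trait of low genes. Gm45234 was the only one of the 8909 genes at 2 TPM or above in every LrpprcP27A library, and it was picked after its values were seen. It measured 0.447, 0.0114 and 0 TPM with LrpprcWT and 2.28, 2.96 and 2.04 TPM with LrpprcP27A.

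Markers of other cell types were summed in each library on the deposited scale, on which most genes were lower with LrpprcP27A. The 10 male germ cell markers were all under 1 TPM, 4 of them (Prm1, Tnp1, Acrv1 and Ldhc) at 0 in all libraries, and summed to 0.414 to 0.511 TPM with LrpprcWT and 0.365 to 0.701 TPM with LrpprcP27A. Of 10 striatal neuron markers, 6 were under 1 TPM in every library, and Drd2 was at 0 throughout. Their sum was 13.1 to 18.7 TPM with LrpprcWT and 6.82 to 10.8 TPM with LrpprcP27A. The largest part of that sum was Penk, the enkephalin precursor, at 8.84, 7.89 and 11.9 TPM with LrpprcWT and 6.11, 2.75 and 3.42 TPM with LrpprcP27A. Penk had a log2 fold change of -1.09 (limma adjusted p = 0.0247), and of -0.77 with median-of-ratios scaling (limma adjusted p = 0.0669). The 10 neuron markers, 7 of them under 1 TPM in every library, summed to 6.34 to 15.1 TPM with LrpprcWT and 3.38 to 5.36 TPM with LrpprcP27A. Uchl1 made up most of that sum, at 10.5, 5.17 and 12.7 TPM with LrpprcWT and 3.66, 2.50 and 3.90 TPM with LrpprcP27A, while Snap25 was at most 0.0148 TPM. The 6 ciliated cell markers, 4 of them under 1 TPM and Dnah5 at 0, summed to 2.08 to 4.07 TPM with LrpprcWT and 3.13 to 3.29 TPM with LrpprcP27A. The 6 adipocyte markers summed to 94.2 to 118 TPM with LrpprcWT and to 64.7 to 92.1 TPM with LrpprcP27A. Fabp4 alone carried the lower sum, with a mean of 89.1 TPM with LrpprcWT and 56.8 TPM with LrpprcP27A, while the means of the other 5 markers were higher with LrpprcP27A, such as Cfd at 10.5 and 16.2 TPM. The part of these cells in the values of the 4 genes was not tested.

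**Figure D4:**
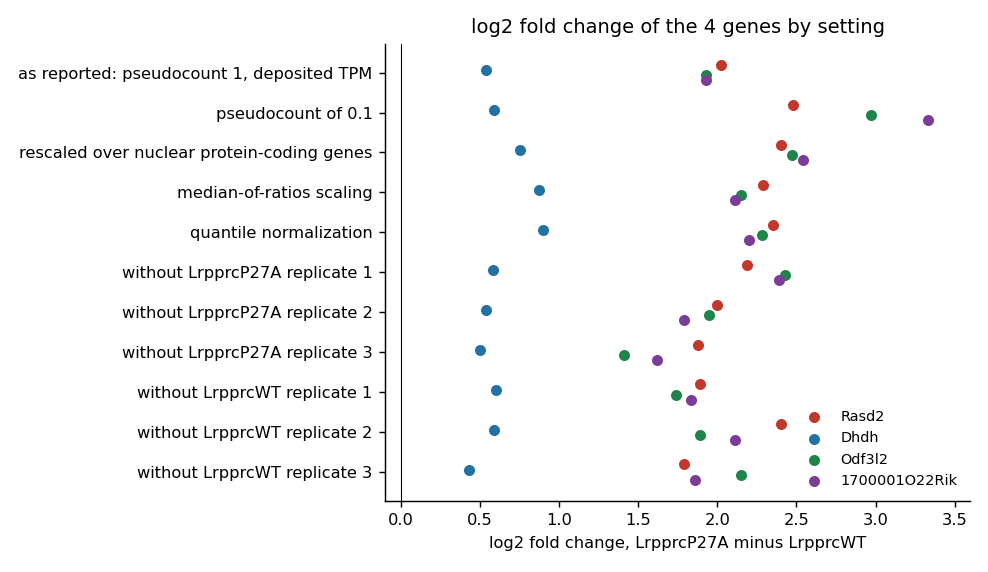
Log2 fold change of LrpprcP27A against LrpprcWT (horizontal axis) for the 4 genes under each setting of the processing and with each library left out (rows). Every point is above 0, which only the rows of other scalings could have changed, since the groups of these genes do not overlap. Dhdh stays between 0.43 and 0.90, and 1700001O22Rik reaches 3.33 with a pseudocount of 0.1.

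Across the settings drawn in the plot of log2 fold changes by setting, the value of Rasd2 ranged from 1.79 to 2.48 and that of Odf3l2 from 1.41 to 2.97. The lowest value of Odf3l2 was the one without the LrpprcP27A library of replicate 3, in which it measured 11.5 TPM. 1700001O22Rik was likewise lowest, at 1.62, without that library.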

How the data were processed

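RNA-seq libraries were made from total RNA of 6 TA muscles with the TruSeq RNA v2 kit, which does not mark strand, and read lengths were 100 bp. After trimming, the authors mapped reads to GRCm39 with CLC Genomics Workbench, and its TPM for 41709 genes were deposited. The gene annotation they used is not given in the sources used here. TPM sums to 1000000 in each library and keeps no depth, so no counting error can be given, and the value of one gene depends on the share that all others take. Samples were grouped by their labels, and 0 columns were left unused.

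From the deposited TPM, log2(TPM + 1) was compared with limma 3.58.1 in R 4.3.3 (empirical Bayes with a trend) for the 11611 genes with a mean of at least 1 TPM, two-sided, with Benjamini-Hochberg adjustment over all of them. The SE given are limma's moderated ones, with each gene's variance drawn towards a trend over all genes. The script was tested on simulated data. Tables were made in Python 3.11.15 with pandas 2.3.3 and numpy 2.4.6. The Kruskal-Wallis test that the study's methods name was an alternative, since its smallest p with 3 against 3 is just under 0.05. The limma p-values rest on the spread between these 6 muscles, moderated in the same way, and the main fit does not use the replicate number.

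The replicate number was also fitted as a block. The methods describe contralateral muscles, and the groups share their library numbers. Deviations from the group means correlated by 0.363, 0.528 and 0.356 in the 3 same-numbered pairs. The correlations of differently numbered libraries were not set beside them, so these values are not read as evidence of pairing. That a library number stands for a mouse is not stated outright. The other alternatives were a pseudocount of 0.1, no filter or a mean of at least 5 TPM, no trend, 3 other scalings (median of ratios, rescaling over nuclear protein-coding genes, quantile normalization), the block combined with median-of-ratios scaling, and each library left out in turn.

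The 4 genes and the lists were chosen with earlier results of these data known. The genes named are the members, Lrpprc, direct relatives, overlapping genes and the 2 nearest on each side, the 2 largest log2 fold changes called in each direction in each list, the 3 genes most like each member by Pearson's r, and cell type markers. Some genes that this rule picks are not reported here. Positions come from GENCODE on GRCm39, matched by symbol (Odf3l2 as Cimap1d), and promoters from RefSeq on GRCm38.p6, of which the bases after the start site were left out.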

Additional observations from a re-analysis of the deposited data

How the results depend on the processing

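The log2 fold changes of the 4 genes stayed above 0 under every alternative run. Their groups do not overlap, so leaving out a library or changing the pseudocount, filter, trend, test or block could not turn the sign. Only the scalings could have done so. Leaving out each library gave 1.79 to 2.40 for Rasd2, 0.43 to 0.60 for Dhdh, 1.41 to 2.43 for Odf3l2 and 1.62 to 2.39 for 1700001O22Rik. With a pseudocount of 0.1 Odf3l2 was at 2.97 and 1700001O22Rik at 3.33, since a smaller pseudocount widens differences between low values. Dhdh was at 0.87 with median-of-ratios scaling, with or without the replicate block, at 0.90 with quantile normalization and at 0.75 after rescaling over nuclear protein-coding genes. A mean of at least 5 TPM leaves no value for Odf3l2 and 1700001O22Rik.

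The 156 genes called higher became 609 with median-of-ratios scaling, 493 with quantile normalization, 312 with the replicate block, 1561 with the replicate block and median-of-ratios scaling, 9 without a filter and 0 with the Kruskal-Wallis test. The 2705 genes called lower became 700, 518 and 634 with median-of-ratios scaling, quantile normalization and rescaling, 5619 with the replicate block, 1560 at a mean of at least 5 TPM, 42 without a filter and 0 with the Kruskal-Wallis test. The 0 calls with the Kruskal-Wallis test follow from the group size and are not read as a loss of support. With 3 against 3 its smallest p is just under 0.05, so nearly every tested gene would have to reach it. Rras, whose groups do not overlap, had a Kruskal-Wallis adjusted p of 0.0969. The cause of the other changes was not tested, apart from the fewer or more genes that a filter leaves. The Kruskal-Wallis test had 407 genes higher and 5530 lower at an unadjusted p under 0.05. Of the list genes, the 6 called higher became 13, 11 and 29 with median-of-ratios scaling, quantile normalization and the replicate block with median-of-ratios scaling, 3 without the trend, and 0 without a filter or with the Kruskal-Wallis test. The 28 called lower became 7, 4 and 7 under the 3 scalings, 68 with the replicate block, 17 at a mean of at least 5 TPM, and 0 without a filter or with the Kruskal-Wallis test. At an unadjusted p under 0.05 these were 12 higher and 87 lower without a filter, and 10 and 68 with the Kruskal-Wallis test. Leaving out each library gave 3 to 304 genes higher, 15 to 6913 lower, 0 to 11 list genes higher and 0 to 80 lower.

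Of the other genes named, 5 turned to a log2 fold change above 0, or to 0, under some setting, none of them called in the first place. With median-of-ratios scaling, with or without the replicate block, Blvra was at 0.03, Gfod2 at 0.23, Ntmt1 at 0.04, Shc2 at 0.13 and Tpgs1 at 0.01. With quantile normalization Blvra was at 0.09, Gfod2 at 0.35, Ntmt1 at 0.11 and Shc2 at 0.27, and after rescaling Gfod2 was at 0.11 and Shc2 at 0.02. Without the LrpprcP27A library of replicate 1 Gfod2 was at 0.06 and Shc2 at 0.05, and without the LrpprcWT library of replicate 2 Gfod2 was at 0.00. With a library left out, Gfod2 ranged from -0.13 to 0.06 and Shc2 from -0.22 to 0.05. Of 30 genes with a call that the naming rule picked, all 30 kept it with the replicate block, 18, 17 and 18 with median-of-ratios scaling, quantile normalization and rescaling, and 0 to 29 with a library left out, with 0 without the LrpprcWT library of replicate 3. TPM keeps no depth, so counting error, which weighs most on values as low as those of Odf3l2 and 1700001O22Rik, could not be given.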
